A study of Mus musculus with 18 samples.

Results

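The livers of mice given lipopolysaccharide (LPS) together with Moringa isothiocyanate-1 (MIC-1) were set against the livers of control mice, gene by gene, to see which changes from control were present when both agents were on board. LPS is a cell-wall component of Gram-negative bacteria used to provoke sepsis-like inflammation, and MIC-1 is a stable isothiocyanate from moringa seeds. The comparison took in all 10147 genes with a mean FPKM (fragments per kilobase of transcript, scaled to the library size) above 1 over the 9 liver libraries, out of 21441 genes in the liver table, and 6 of the 18 libraries of the series, 3 for LPS+MIC-1 and 3 for control. A gene was called higher or lower when its Log2FC (the difference of mean log2(FPKM + 0.5), LPS+MIC-1 minus control) was above 1 or below -1 with an adjusted p below 0.05 in limma.

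All groups were wild-type male C57BL/6 mice housed in pairs, and no group carried a transgene or a deletion. LPS+MIC-1 mice were gavaged for 3 days with MIC-1 at 80 mg/kg, a dose set by the 38.9% MIC-1 content of a moringa seed extract, and were then injected intraperitoneally with LPS at 10 mg/kg. Control mice received the 10% DMSO vehicle and saline, and LPS mice received LPS at 10 mg/kg without MIC-1. Livers were taken 16 h after the injection from 6 mice per group, of which 3 were sequenced, and the labels tie no library to a mouse, so p-values measure the spread between these libraries. The series' design text gives MIC-1 for the livers as a concentration of 10 µM, whereas the sample labels give the gavage dose used here. No liver received MIC-1 alone, so what MIC-1 does in an uninflamed liver was not measured, and every difference from control in the LPS+MIC-1 livers carries the LPS. Whole liver was used, and in such bulk RNA fewer cells of a type and less RNA per cell cannot be told apart.

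The libraries differed in ways that moved with the groups. Estimated depth was 3930000 to 9150000 reads in controls against 12910000 to 16960000 in LPS+MIC-1, and FPKM values summed to 590303 to 758661 against 1000904 to 1063784. Within each group a pair of libraries lay far closer together than to the third, namely LPS+MIC-1 libraries 1 and 3, control libraries 2 and 3, and LPS libraries 1 and 3. The squared distance of LPS+MIC-1 libraries 1 and 3 was 2.3 times what read sampling gives, against 33.05 and 33.1 times for the other pairs of that group. The sources name no litter, cage or batch for these pairs, so all 3 libraries were counted and the calls were also run with the close pairs averaged. Of the 8 hepatocyte markers, 7 were not called, with Alb (albumin) at 35991, 16299 and 18358 FPKM in controls and 21622, 13740.1 and 22145 in LPS+MIC-1, and the libraries carried the markers of the labelled tissue. Throughout, values are listed in the order libraries 1, 2 and 3.

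As background, LPS is sensed by Tlr4 with Cd14 on Kupffer cells and other macrophages, which turn on NF-kB and release Tnf, Il1b and Il6. Interleukin-6 then acts on hepatocytes through Stat3 and, with interleukin-1, drives the acute-phase response, in which the liver pours out serum amyloid A, haptoglobin, fibrinogen and other plasma proteins while cytochrome P450 enzymes, bile acid synthesis and lipid synthesis decline. Isothiocyanates are known for reacting with Keap1, which frees Nrf2 to switch on genes for glutathione synthesis, conjugation and quinone reduction.

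In the LPS+MIC-1 livers 2560 genes were called different from control, 25.2% of the genes tested, with 1396 higher (13.8%) and 1164 lower (11.5%). The counts of each gene list below are to be read beside these shares. The change passed 4-fold (Log2FC above 2 or below -2) in 376 of the genes that rose and in 314 of those that fell. FPKM values of the groups did not overlap for 2527 of the called genes, beside 54.6% of all tested genes. The median SE of Log2FC was 0.29, with 3 libraries per group. The split into higher and lower depended on the scaling and on the filter. As deposited 54.5% of called genes were higher, against 48.4% after median-of-ratios rescaling and 17.2% when every library was rescaled to the same FPKM sum. The median Log2FC of all genes was 0.15, 0.06 and -0.43 in that order. With no filter on low values 50.6% of called genes were higher, and with a mean FPKM above 5 the share was 62.6%. With the closest pair of each group averaged as 1 sample, 160 genes were called, 99 higher and 61 lower, and 158 of them were among the 2560. In the same fit, LPS livers differed from the same controls in 2493 genes (1356 higher and 1137 lower), and no gene was called between LPS+MIC-1 and LPS.

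**Figure D1:**
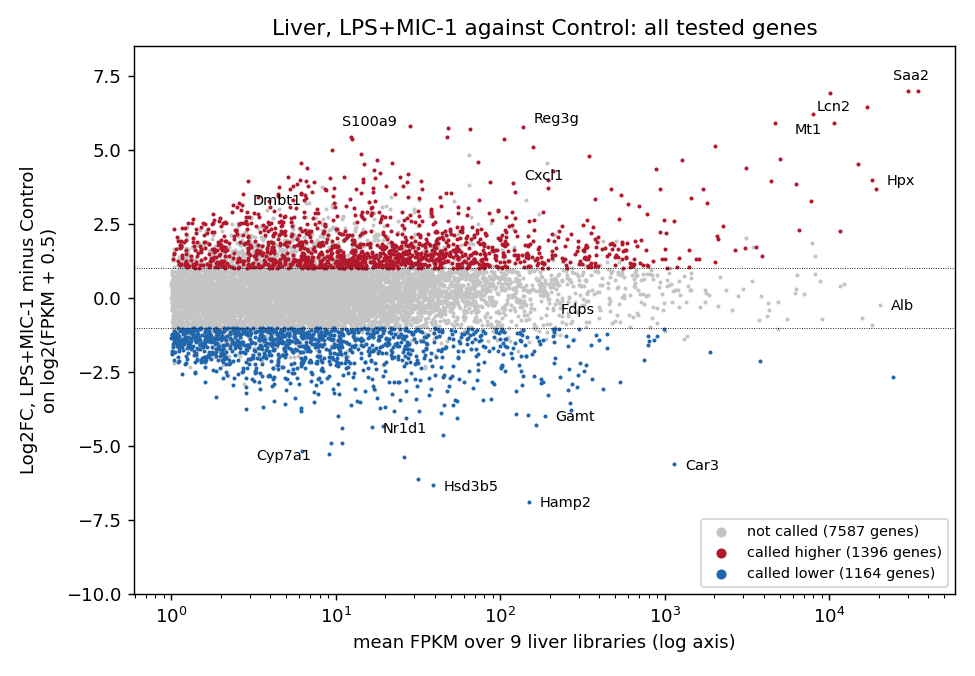
Log2FC of LPS+MIC-1 minus control (vertical axis) against mean FPKM (horizontal log axis) for the 10147 tested genes, 1 point per gene, with genes called higher and lower in colour. The called genes spread over the whole range of levels, and Saa2 at 6.99 and Hamp2 at -6.88 lie at the ends of the vertical range.

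The promoters of several genes described below hold short sequences bound by the factors of these pathways, and a few are shown so that the sites can be read beside the values. The 250 bases before the start of 7195 of the 10147 tested genes (70.9%) were taken from RefSeq (GRCm38.p6) and searched on both strands. A pair of GAAA half-sites with 2 bases between them, of the kind bound by interferon regulatory factors, was present in 4.93% of the promoters of genes that rose, 3.0% of those that fell, 2.37% of genes not called and 3.04% of all promoters of the RefSeq table. The corresponding shares were 6.65%, 5.76%, 5.02% and 4.6% for GGG and TTCC with 3 bases between them, a form of NF-kB site, and 7.96%, 5.76%, 5.72% and 7.18% for TTCNNNGAA, a form of STAT site. For TGACNNNGC, the core of the antioxidant response element bound by Nrf2, they were 11.6%, 12.0%, 12.4% and 10.1%, so this core was no more frequent in genes that changed than in genes that did not.

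The windows below are written 5′ to 3′ on the strand of the gene, with capitals marking the matches, and a match is a description of letters and not a measured binding site. In Cxcl1 an NF-kB form on the reverse strand is followed by overlapping forms, in Oas1g matches to the interferon pattern overlap, and Socs3, Mt2 and Hamp2 hold 1 match each. No match to the patterns lay in the searched window of Saa1, Saa2 or Lcn2, which says only that these letters were not there.
Cxcl1, chr5:90891136-90891204 (plus strand, bases -109 to -41), NF-kB forms in capitals: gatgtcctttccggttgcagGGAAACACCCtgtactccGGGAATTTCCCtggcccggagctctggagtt
Oas1g, chr5:120887614-120887651 (minus strand, bases -38 to -1), interferon patterns in capitals: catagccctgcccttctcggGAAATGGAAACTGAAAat
Socs3, chr11:117969492-117969540 (minus strand, bases -174 to -126), STAT form in capitals: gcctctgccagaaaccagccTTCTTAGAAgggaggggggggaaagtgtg
Mt2, chr8:94172519-94172567 (plus strand, bases -99 to -51), antioxidant core in capitals: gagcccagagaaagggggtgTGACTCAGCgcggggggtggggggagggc
Hamp2, chr7:30924247-30924295 (minus strand, bases -114 to -66), STAT form in capitals: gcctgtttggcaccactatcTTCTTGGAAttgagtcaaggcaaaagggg

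Plasma proteins of the acute phase showed the largest rises. Of the 26 genes of this list 25 rose and 0 fell, with a median Log2FC of 3.97 beside 0.15 over all tested genes, and their summed FPKM went from 2.95, 5.48 and 1.89% of the total in the controls to 31.5, 28.9 and 31.6% in LPS+MIC-1. The serum amyloid A genes, whose products join high-density lipoprotein in inflammation, were among the most abundant transcripts of these livers. Saa2 (chr7:54007203-54009684, plus strand; positions here and below are mm9) was at 524, 4703 and 57.6 FPKM in the controls and at 66233, 65252 and 67773 in LPS+MIC-1 (Log2FC 6.99 ± 1.28 (SE), adjusted p = 0.00572). Saa3 (chr7:53967368-53971046) went from 391, 4075 and 52.9 to 55080.4, 52637 and 58841 FPKM (Log2FC 6.98 ± 1.26 (SE), adjusted p = 0.00539). Control library 2 was the highest of the controls and library 3 the lowest for both genes, and both lay below every LPS+MIC-1 library. Saa1 (chr7:53995871-53998350) behaved alike (Log2FC 6.90 ± 1.36 (SE), adjusted p = 0.00733), and since Saa1 and Saa2 are near-identical copies the share of reads given to each is uncertain.

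Other members of the list rose as well, and the spread was smaller for some of them. Lcn2 (chr2:32240153-32243317), which binds bacterial iron-carrying siderophores, was at 405, 2037 and 35.5 FPKM in controls and 27409.8, 23389 and 29666 in LPS+MIC-1 (Log2FC 6.43 ± 1.18 (SE), adjusted p = 0.00578). Orm1 (chr4:63005594-63009197), an alpha-1-acid glycoprotein, stood at 2009.9, 3098 and 1189 against 27229, 37765 and 28619 FPKM (Log2FC 3.99 ± 0.38 (SE), adjusted p = 0.00059). Orm2 next to it was at 138, 663 and 30.4 against 8251, 8793 and 8399 FPKM (Log2FC 5.90 ± 0.90 (SE), adjusted p = 0.0032). Haptoglobin and hemopexin, which bind free hemoglobin and heme, rose as well. Hp went from 2366, 2789.7 and 216 to 29252, 19617 and 29819 FPKM (Log2FC 4.52 ± 0.86 (SE), adjusted p = 0.00659), and Hpx from 3093, 3395 and 1313 to 30892, 29370.1 and 32342 FPKM (Log2FC 3.68 ± 0.37 (SE), adjusted p = 0.000722). Apcs, the serum amyloid P component that is a main acute-phase protein of the mouse, went from 121, 284 and 24.8 to 3355, 3182 and 3594 FPKM (Log2FC 5.14 ± 0.72 (SE), adjusted p = 0.00242), a gene named after its values were seen. For all of these the lowest LPS+MIC-1 library lay above the highest control. Among the 10 negative acute-phase proteins, which decline in inflammation, 1 fell and 1 rose, 3 rising without control library 1 and 1 higher and 4 lower with the same FPKM sum. Serpina6, the corticosteroid-binding globulin, was at 185, 113 and 129 FPKM in controls and 19.2, 20.1 and 21.5 in LPS+MIC-1 (Log2FC -2.76 ± 0.40 (SE), adjusted p = 0.00267). The riser was Trf, the iron carrier transferrin, at 3037, 2148 and 1407 against 12817, 6530.4 and 12998 FPKM (Log2FC 2.30 ± 0.41 (SE), adjusted p = 0.00535).

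**Figure D2:**
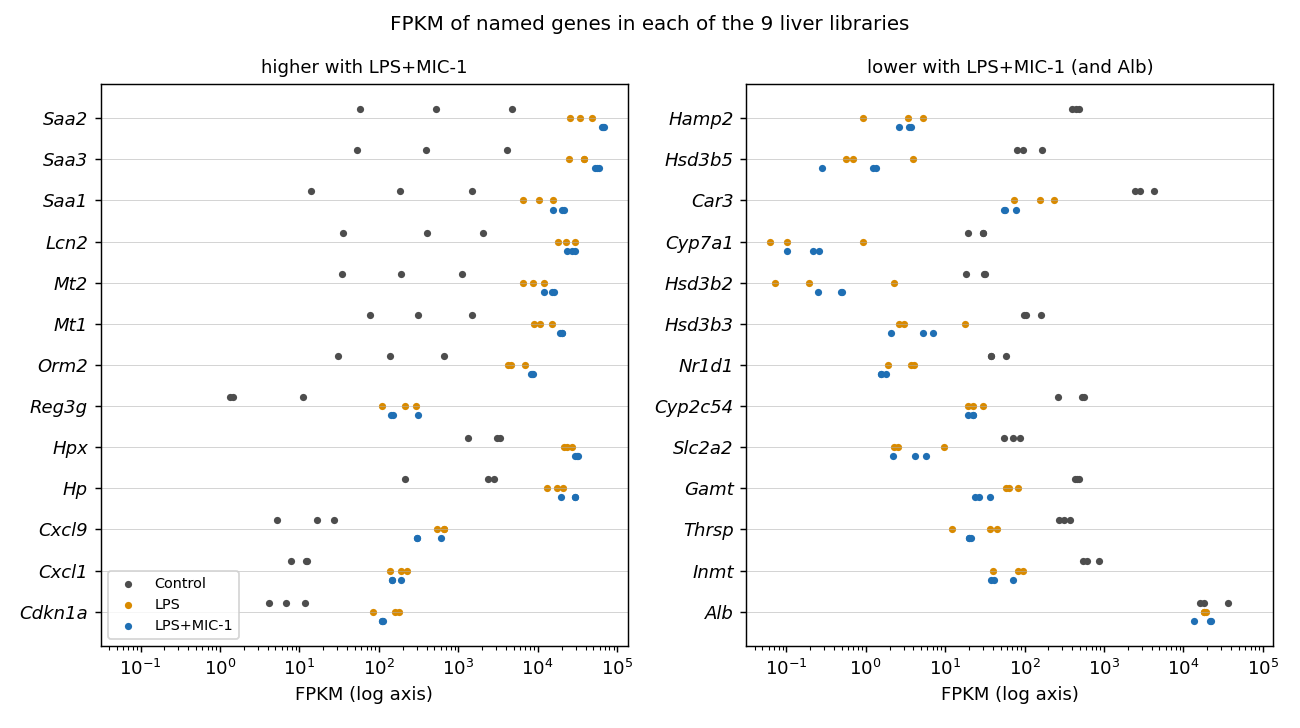
FPKM of 13 genes higher with LPS+MIC-1 (left) and of 12 lower genes with Alb (right) in each of the 9 liver libraries (log axis), 1 point per library, with control, LPS and LPS+MIC-1 in separate colours. The LPS+MIC-1 points of Saa2 sit between 65252 and 67773 FPKM, above the 3 controls, and those of Hamp2 between 2.62 and 3.68 FPKM, below them.

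Metal-binding genes rose alongside. Of 20 genes for metallothioneins, zinc and iron, 10 rose and 1 fell (median Log2FC 1.08), although without control library 3 only 6 were called higher. The metallothioneins hold zinc and other metals in the cytosol. Mt1 (chr8:96702989-96704225) was at 309.7, 1496 and 77.9 FPKM in the controls and 18929, 20292 and 20433 in LPS+MIC-1 (Log2FC 5.91 ± 0.88 (SE), adjusted p = 0.00291), and Mt2 beside it at 189, 1121 and 34.8 against 15181, 12050.1 and 15874 FPKM (Log2FC 6.19 ± 1.02 (SE), adjusted p = 0.00407). Control library 2 was again the highest control for both. Fth1, the ferritin heavy chain that stores iron, rose from 1688, 1198 and 1068 to 3837, 4890.4 and 3929 FPKM (Log2FC 1.70 ± 0.30 (SE), adjusted p = 0.00491). Hamp2 (chr7:31707391-31709200, minus strand), a copy of the hepcidin gene, showed the largest fall among the tested genes, with 395, 447 and 481 FPKM in the controls against 3.49, 2.62 and 3.68 in LPS+MIC-1 (Log2FC -6.88 ± 0.44 (SE), adjusted p = 0.000213). Its neighbour Hamp, the hepcidin that closes the iron exporter ferroportin, was not called, with 7315, 5854 and 5794 FPKM in the controls and 5722, 2008 and 5998 in LPS+MIC-1 (Log2FC -0.62 ± 0.41 (SE), adjusted p = 0.256), LPS+MIC-1 library 2 standing below libraries 1 and 3. Hamp was named after its values were seen.

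The cytokines at the head of the pathway were low in whole liver at this time. Tnf was listed at 0 in all 3 controls, at 1.02, 1.1 and 0 FPKM in LPS+MIC-1 and at 1.36, 2.14 and 1.32 in LPS. Il6 was listed at 0 in all 3 controls and at 0.211, 0.503 and 0.149 FPKM in LPS+MIC-1. Both had a mean FPKM below 1 and were not tested. Il1b, the interleukin-1 made by activated macrophages, was at 1.17, 0.587 and 1.72 FPKM in controls and 4.25, 8.1 and 4.54 in LPS+MIC-1 (Log2FC 1.89 ± 0.32 (SE), adjusted p = 0.00462), while its antagonist Il1rn was at 2.62, 4.23 and 1.75 against 25.3, 69.4 and 28.6 (Log2FC 3.54 ± 0.71 (SE), adjusted p = 0.00759). Of the 9 cytokines tested these and Il10 rose and none fell, 1 falling without control library 2. The list has 21 cytokines with deposited values, and the others did not pass the filter. That filter averages over all 9 liver libraries, so a gene high only in the controls passes it less easily. Lif, named after its values were seen, was at 2.13, 2.46 and 1.69 FPKM in controls and 0.161, 0.493 and 0.17 in LPS+MIC-1. It was not tested, and the untested Tnf and Il6 went the other way.

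Chemokines, which draw leukocytes into tissue, rose in 11 of 22 cases with none lower (median Log2FC 1.29). Without control library 1 there were 4 lower, without LPS library 2 or LPS+MIC-1 library 2 there was 1, and with the same FPKM sum the list had 9 higher and 3 lower. Cxcl1 (chr5:91320267-91322141), a neutrophil attractant, was at 12.4, 12.1 and 7.83 FPKM in controls and 146, 192 and 147 in LPS+MIC-1 (Log2FC 3.86 ± 0.26 (SE), adjusted p = 0.000213). Cxcl9, an interferon-gamma-induced attractant of T cells, was at 16.5, 27 and 5.25 against 301, 601 and 302 FPKM (Log2FC 4.77 ± 0.53 (SE), adjusted p = 0.0011). Cxcl1, Cxcl9 and Cxcl10 kept their call with the close pairs averaged. LPS+MIC-1 library 2 was above libraries 1 and 3 in both genes, but every LPS+MIC-1 library lay above every control.

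In the NF-kB and Toll-like receptor list 8 of 26 genes rose and none fell. With the close pairs averaged none was called, and with the same FPKM sum the list had 3 higher and 3 lower. Cd14, the LPS co-receptor, was at 10.8, 7.7 and 3.49 FPKM in controls and 56.7, 407 and 61.4 in LPS+MIC-1 (Log2FC 3.98 ± 0.95 (SE), adjusted p = 0.0139). Its call was lost without control library 3, where the adjusted p was 0.0517. Sod2, the mitochondrial superoxide dismutase that NF-kB turns on, rose from 56.6, 58.1 and 58.1 to 131, 248 and 133 FPKM (Log2FC 1.49 ± 0.29 (SE), adjusted p = 0.0072), a call lost when libraries were rescaled to the same FPKM sum. Relb was listed at 0 in every control and at 2.55, 5.17 and 2.09 FPKM in LPS+MIC-1, and without control library 2 or 3 or LPS+MIC-1 library 2 its adjusted p was 0.0524, 0.0517 and 0.0559. The inhibitor Nfkbia, named after its values were seen, was at 130.4, 90.5 and 84.6 FPKM in controls and 56.9, 123 and 51.6 in LPS+MIC-1 and was not called (adjusted p = 0.327), with LPS+MIC-1 library 2 inside the control range and the others below it.

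Interleukin-6 and STAT signalling split in direction, with 6 of 22 genes higher and 4 lower, or 4 higher and 7 lower with the same FPKM sum. Socs3, the feedback inhibitor that Stat3 induces, was at 5.12, 7.74 and 4.78 FPKM in the controls and 31.8, 38.7 and 31.3 in LPS+MIC-1 (Log2FC 2.46 ± 0.26 (SE), adjusted p = 0.000856). Socs2, which is induced by growth hormone through Stat5, went the other way, from 103, 30.7 and 38.7 to 2.49, 10.4 and 2.44 FPKM (Log2FC -3.45 ± 0.61 (SE), adjusted p = 0.00496). The interleukin-1 receptor Il1r1 rose (Log2FC 1.97 ± 0.32 (SE), adjusted p = 0.00375) and its partner chain Il1rap fell (Log2FC -1.55 ± 0.30 (SE), adjusted p = 0.00683).

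Interferon-induced genes, whose products restrain viruses and intracellular bacteria, rose in 16 of 38 cases and fell in none, with a median Log2FC of 1.41, and 13 higher and 1 lower with the same FPKM sum. Zbp1, a sensor of Z-form nucleic acids, was at 8.47, 8.8 and 6.02 FPKM in controls and 69.9, 104 and 70.7 in LPS+MIC-1 (Log2FC 3.30 ± 0.31 (SE), adjusted p = 0.000517). Bst2, which tethers budding virus, was at 159, 70.0 and 54.3 against 459.7, 262 and 455 FPKM (Log2FC 2.16 ± 0.43 (SE), adjusted p = 0.0074). Oas1g, whose interferon pattern is shown above, was listed at 0 in the 3 controls and at 5.01, 2.77 and 2.76 FPKM in LPS+MIC-1, and as a member of a family of close copies its share of reads is uncertain. With the close pairs averaged, 3 genes of the list stayed called. Of 23 MHC class I genes 11 rose and none fell, led among genes with values above 0 in the controls by the immunoproteasome subunit Psmb8, at 13.9, 18.4 and 16.4 against 79.1, 101 and 84.4 FPKM (Log2FC 2.41 ± 0.19 (SE), adjusted p = 0.000335). Without control library 1 the class I list had 2 lower and without LPS+MIC-1 library 2 it had 1, with the same FPKM sum it had 3 higher and 3 lower, and with the close pairs averaged 1 gene was called higher. Of 5 MHC class II genes 2 fell, H2-Eb1 from 9.09, 8.45 and 10.9 to 3.21, 4.86 and 3.72 FPKM (Log2FC -1.18 ± 0.21 (SE), adjusted p = 0.00496) and H2-Aa, whose call was lost without control library 2 or 3 or LPS+MIC-1 library 1 or 3 (adjusted p = 0.0665, 0.0807, 0.087 and 0.0851).

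Markers of leukocytes moved with these groups, and their part in the results above was not tested. Neutrophil markers rose in 7 of 11 tested cases and Cxcr2 fell, and their summed FPKM was 40.9, 55.4 and 40.6 in controls against 198, 476 and 210.0 in LPS+MIC-1. S100a8, with S100a9 the calprotectin of neutrophils and monocytes, was at 7.49, 7.98 and 2.13 FPKM in the controls and 141, 339 and 143 in LPS+MIC-1 (Log2FC 5.08 ± 0.50 (SE), adjusted p = 0.000646). S100a9 was listed at 0, 0 and 0.448 FPKM in controls and 20.5, 57.4 and 32.2 in LPS+MIC-1. The neutrophil granule gene Ngp was at 1.18, 0.514 and 0 against 9.46, 19.9 and 8.98 FPKM (Log2FC 3.72 ± 0.79 (SE), adjusted p = 0.00934), whereas Csf3r was at 0.277, 0 and 0.487 and Mpo at 0.0861, 0.24 and 0.0303 FPKM in LPS+MIC-1, both listed at 0 in the controls. LPS+MIC-1 library 2 held the highest neutrophil sum. Monocyte markers summed to 19.2, 25.8 and 16.3 FPKM in controls and 87.4, 109 and 89.6 in LPS+MIC-1, and Chi3l3 and Plac8 were among those called higher. Of the 10 Kupffer cell markers tested, Marco, a scavenger receptor, rose from 2.51, 6.79 and 2.18 to 74.2, 38.4 and 75.6 FPKM (Log2FC 3.96 ± 0.43 (SE), adjusted p = 0.00099), as did the complement genes C1qa and C1qb. Clec4f, which marks resident Kupffer cells, fell from 13, 29.8 and 30.1 to 4.44, 4.83 and 4.33 FPKM (Log2FC -2.21 ± 0.38 (SE), adjusted p = 0.00465), and Vsig4 fell as well. Cd79a of B cells fell from 3.57, 2.68 and 2.42 to 0.328, 0.878 and 0.433 FPKM (Log2FC -1.72 ± 0.36 (SE), adjusted p = 0.00845). No stellate cell or platelet marker was called, and the marker genes of this paragraph, apart from S100a9 and Vsig4, were named after their values were seen.

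Complement and coagulation proteins, made largely by hepatocytes, rose in 10 of 30 and 13 of 33 cases, with 2 and 2 lower. The lower coagulation genes were Klkb1 and Plau, and without control library 2 or 3 or LPS+MIC-1 library 1 or 3 neither was called and without LPS+MIC-1 library 2 only Plau was. The count of lower complement genes was 1 without control library 2 or 3 or LPS+MIC-1 library 1 or 3. With the same FPKM sum coagulation had 8 higher and 8 lower and complement 7 higher and 3 lower. The central component C3 was at 815, 742 and 499.9 FPKM in controls and 3981, 2857 and 4025 in LPS+MIC-1 (Log2FC 2.41 ± 0.26 (SE), adjusted p = 0.000943), and Cd55, which protects host cells from complement, at 1.61, 0.959 and 1.23 against 7.37, 5.46 and 8.39 (Log2FC 2.10 ± 0.24 (SE), adjusted p = 0.00114). The fibrinogen chain Fga was at 708, 693 and 116 against 7780.1, 3497 and 7767 FPKM (Log2FC 3.95 ± 0.81 (SE), adjusted p = 0.00823), control library 3 being far below the other controls and LPS+MIC-1 library 2 below its group. Fgb and Fgg, the other fibrinogen chains, rose alike (3.28 and 3.83 on the Log2FC scale). Timp1, an inhibitor of matrix metalloproteinases, was at 0.543, 0.935 and 1.14 FPKM in controls and 11, 50.1 and 10.7 in LPS+MIC-1 (Log2FC 3.79 ± 0.54 (SE), adjusted p = 0.00249), LPS+MIC-1 library 2 standing far above libraries 1 and 3. Cdkn1a, the cell-cycle inhibitor p21, was at 6.85, 11.8 and 4.1 against 113, 109 and 110.1 FPKM (Log2FC 3.90 ± 0.38 (SE), adjusted p = 0.000646), with the 3 LPS+MIC-1 libraries close together. Of 12 cell division genes tested none rose and 3 fell, among them Tyms, which makes thymidylate for DNA synthesis (Log2FC -2.31 ± 0.47 (SE), adjusted p = 0.00813), and 1 rose without control library 1 or LPS+MIC-1 library 2. The median Log2FC was 0.21. The list has 30 genes with deposited values, and the others did not pass the filter. Among these, Ccne1, Cdc6, Cdk1 and Mcm4 were higher in every LPS+MIC-1 library than in any control, and Ccna2 and Ccnb2 lower. All were named after their values were seen.

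Of 75 cytosolic ribosomal protein genes 39 were called higher and none lower (median Log2FC 1.05, and 0.39 after rescaling to the same FPKM sum, where 12 were called). Without control library 2 the count was 25, and with the close pairs averaged it was 0. Rplp2, a stalk protein of the large subunit, was at 428, 290.3 and 226 FPKM in controls and 1297, 1616 and 1339.5 in LPS+MIC-1 (Log2FC 2.21 ± 0.27 (SE), adjusted p = 0.00151). Of 28 genes of endoplasmic reticulum stress 12 rose and none fell, 6 without control library 2 or 3 or without LPS+MIC-1 library 1 or 3. In this list 5 were called higher with the same FPKM sum, and 2 with the close pairs averaged. Fgf21, a fasting and stress hormone of the liver, was at 0.638, 0.221 and 0 FPKM in controls and 4.92, 11.3 and 5.28 in LPS+MIC-1 (Log2FC 3.27 ± 0.40 (SE), adjusted p = 0.00151). Pdia6, a disulfide isomerase, was at 64.9, 36.3 and 22.8 against 272, 157 and 280.3 FPKM (Log2FC 2.58 ± 0.41 (SE), adjusted p = 0.00343). Proteasome subunits rose in 12 of 31 cases and fell in 2, Psmd13 leading with 12.3, 7.34 and 3.17 against 58.8, 47.6 and 58.5 FPKM (Log2FC 2.94 ± 0.58 (SE), adjusted p = 0.00727). The genes that fell, Psmd1 and Psmd11, both lost their call without control library 2 or 3 or LPS+MIC-1 library 1 or 3, the list had 4 higher and 4 lower with the same FPKM sum, and with the close pairs averaged no subunit was called. Of 71 genes of oxidative phosphorylation 16 were called higher and 1 lower, but their median Log2FC of 0.40 became -0.25 with the same FPKM sum, where 3 higher and 7 lower were called, and 7 and 8 were called higher without control library 2 and 3, and 9 and 8 without LPS+MIC-1 library 1 and 3.

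**Figure D3:**
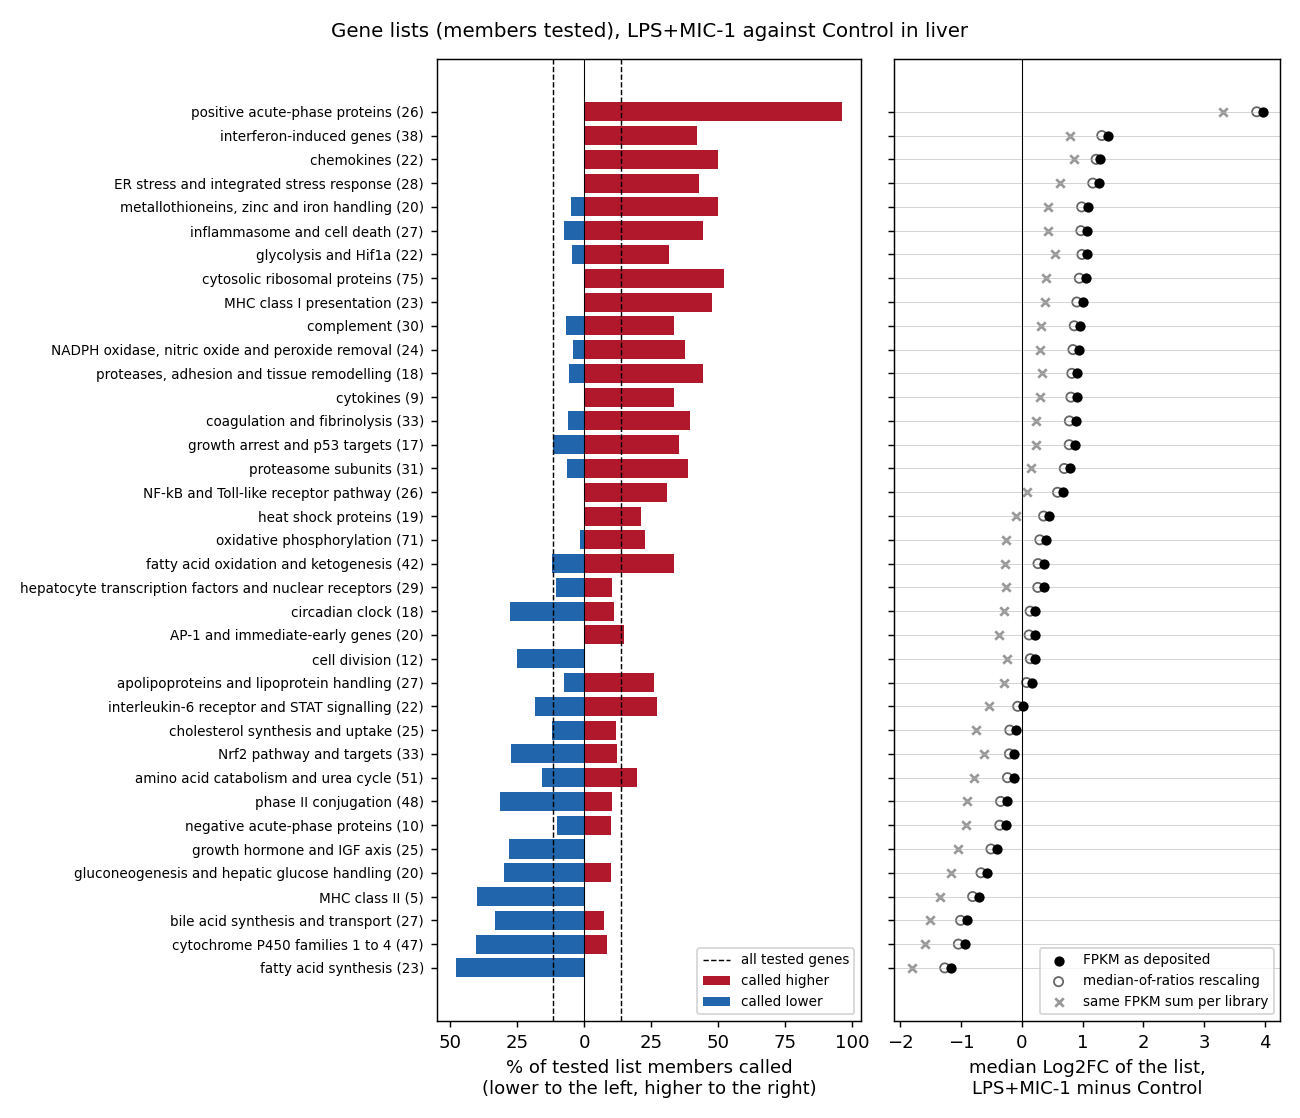
Left, percent of the tested members of each of the 37 process lists called higher (right of 0) and lower (left of 0) in LPS+MIC-1 against control, with dashed lines at the percents over all tested genes, 13.8% higher and 11.5% lower; right, median Log2FC of each list as deposited and after both rescalings. The positive acute-phase list has 25 of 26 genes higher, and the cytochrome P450 list has 19 of 47 lower. With the same FPKM sum, lists with a small positive median turn negative, and lists with a negative median stay negative.

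Among the falls was the first enzyme of bile acid synthesis. Cyp7a1 (chr4:6192759-6202780, minus strand), the rate-limiting step from cholesterol to bile acids, was at 19.6, 30.3 and 30.2 FPKM in the controls and 0.258, 0.103 and 0.218 in LPS+MIC-1 (Log2FC -5.27 ± 0.37 (SE), adjusted p = 0.000259). Akr1d1, which reduces the steroid ring later in the pathway, was at 52.2, 95.3 and 106 against 7.72, 2.78 and 6.83 FPKM (Log2FC -3.80 ± 0.59 (SE), adjusted p = 0.00336). Every LPS+MIC-1 library of both genes lay below every control. Of the 27 genes of bile acid synthesis and transport 9 fell and 2 rose (median Log2FC -0.91), and Abcb11, the export pump of bile salts, fell as well (Log2FC -2.71), named after its values were seen.

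Cytochrome P450 genes of families 1 to 4, which oxidise drugs, steroids and fatty acids, fell in 19 of 47 cases and rose in 4, with a median Log2FC of -0.94. Cyp2c54 was at 268, 531 and 556 FPKM in controls and 22.3, 19.7 and 22.4 in LPS+MIC-1 (Log2FC -4.29 ± 0.30 (SE), adjusted p = 0.000259), and Cyp2a5, which oxidises nicotine and coumarin, at 509, 743 and 760.2 against 52, 65.9 and 52 FPKM (Log2FC -3.54 ± 0.26 (SE), adjusted p = 0.000279). The groups did not overlap in either gene, and the Cyp2c genes are close copies that can share reads. Cyp2e1, the most abundant gene of the list, was at 2079, 802 and 745 FPKM in controls and 1666, 777 and 1676 in LPS+MIC-1 and was not called (adjusted p = 0.666). Cyp3a11 was called lower (Log2FC -1.06 ± 0.33 (SE), adjusted p = 0.0348), a call lost without control library 1 or 3, LPS library 3 or any of the LPS+MIC-1 libraries, with adjusted p of 0.0527 to 0.0908. Cyp3a13 rose from 24, 26.2 and 18.9 to 153, 61 and 156 FPKM (Log2FC 2.29 ± 0.35 (SE), adjusted p = 0.00321).

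Conjugating enzymes and steroid metabolism followed. Of 48 phase II genes 15 fell and 5 rose, and without control library 1 the latter count was 10. Nnmt, which methylates nicotinamide, rose from 60.6, 97.6 and 75.6 to 725, 1121 and 777 FPKM (Log2FC 3.48 ± 0.27 (SE), adjusted p = 0.000335). Inmt, which methylates indole amines, fell from 877, 551 and 619 to 37.3, 71.4 and 40.9 FPKM (Log2FC -3.79 ± 0.38 (SE), adjusted p = 0.000702). Hsd3b5 (chr3:98422559-98434232, minus strand), a steroid reductase of male mouse liver, was at 167, 81.5 and 95 FPKM in controls and 1.24, 0.285 and 1.36 in LPS+MIC-1 (Log2FC -6.32 ± 0.59 (SE), adjusted p = 0.000517). Its relatives Hsd3b2 and Hsd3b3 fell as well (-4.88 and -4.64 on the Log2FC scale), with the split of reads among these copies uncertain. Hsd3b5, like Socs2, is driven by growth hormone, and of 25 genes of the growth hormone and IGF axis 7 fell and none rose. Without control library 1, 4 rose, and without LPS library 2 or 3 or LPS+MIC-1 library 2, 1 rose. Car3 (chr3:14863538-14872351), the carbonic anhydrase that is plentiful in male mouse liver, was at 4252, 2862 and 2451 FPKM in the controls and 55.4, 77.3 and 57.6 in LPS+MIC-1 (Log2FC -5.62 ± 0.41 (SE), adjusted p = 0.000274). Gamt (chr10:79720896-79723757, minus strand), the last enzyme of creatine synthesis, was at 463, 432 and 486 against 26.6, 36.4 and 23.9 FPKM (Log2FC -3.99 ± 0.21 (SE), adjusted p = 0.000173).

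The Nrf2 list went in both directions. Of 33 genes 4 rose and 9 fell, beside 13.8% and 11.5% of all tested genes, with a median Log2FC of -0.13. Without control library 2 the count lower was 5. With the same FPKM sum the list had 4 higher and 14 lower, and its median was -0.62. Hmox1, which degrades heme, was at 7.5, 9.25 and 4.64 FPKM in controls and 52.1, 23.8 and 50.9 in LPS+MIC-1 (Log2FC 2.45 ± 0.48 (SE), adjusted p = 0.00712). The glutathione transferase Gsta2 was at 214, 71.8 and 77.7 FPKM in controls and 14.9, 12.5 and 12.1 in LPS+MIC-1 (Log2FC -2.97 ± 0.40 (SE), adjusted p = 0.002), Gstm3 at 159.9, 98.8 and 98.3 against 18.1, 17.4 and 19.7 FPKM (Log2FC -2.62 ± 0.25 (SE), adjusted p = 0.000566) and the abundant Gstm1 at 4441, 3328 and 3375 against 1046, 979.6 and 1064 FPKM (Log2FC -1.84 ± 0.23 (SE), adjusted p = 0.0016). Prdx1, a peroxide-removing enzyme, was at 329, 159.5 and 132 FPKM in controls and 772, 511 and 810.3 in LPS+MIC-1 (Log2FC 1.84 ± 0.43 (SE), adjusted p = 0.0129), and without LPS+MIC-1 library 3 its adjusted p was 0.0501. The following members were named after their values were seen. Nfe2l2, the gene of Nrf2 itself, was at 33.2, 40.2 and 43.6 FPKM in controls and 16.1, 15.4 and 13.1 in LPS+MIC-1 (Log2FC -1.36 ± 0.23 (SE), adjusted p = 0.00462). Gclc, the catalytic subunit of glutathione synthesis, was at 128, 103 and 112 against 40.6, 36.4 and 38 FPKM (Log2FC -1.56 ± 0.31 (SE), adjusted p = 0.00723). Nqo1, the classical quinone reductase target, was at 3.98, 6.9 and 4.79 against 2.88, 3.19 and 2.15 FPKM and did not reach a Log2FC of -1 (Log2FC -0.80 ± 0.26 (SE), adjusted p = 0.0411). Cbr3, a carbonyl reductase, rose from 0.0978, 1.03 and 0.335 to 2.31, 2.67 and 2.44 FPKM (Log2FC 1.70 ± 0.36 (SE), adjusted p = 0.00867).

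Of 23 genes of fatty acid synthesis 11 fell and none rose, with a median Log2FC of -1.17, 1 rising without control library 1. Thrsp, a promoter of lipogenesis that answers to thyroid hormone and carbohydrate, was at 374, 275 and 316 FPKM in controls and 20.9, 20.1 and 20.2 in LPS+MIC-1 (Log2FC -3.93 ± 0.43 (SE), adjusted p = 0.000974). Scd1, the stearoyl-CoA desaturase, was at 802, 1332 and 1637 against 218, 108 and 208 FPKM (Log2FC -2.82 ± 0.43 (SE), adjusted p = 0.00307). The fatty acid oxidation list went in both directions, with 14 of 42 higher and 5 lower, 9 higher without LPS+MIC-1 library 3, 3 lower without control library 1 or LPS+MIC-1 library 1 or 3, and a median of 0.36 that turned to -0.28 with the same FPKM sum, where 3 higher and 7 lower were called. Fabp1, the abundant fatty acid binding protein of liver, fell from 10530.4, 6111 and 6652 to 1968, 1275 and 2022 FPKM (Log2FC -2.13 ± 0.50 (SE), adjusted p = 0.013), and the peroxisomal thiolase Acaa1b from 516, 710.1 and 794 to 57.2, 161 and 59 (Log2FC -3.01 ± 0.42 (SE), adjusted p = 0.00243). Of 27 apolipoprotein and lipoprotein genes 7 rose and 2 fell. With the same FPKM sum the balance turned to 3 higher and 8 lower, and without LPS library 2 there were 4 lower. Apoa4 was at 72.7, 42.7 and 17.6 FPKM in controls and 303, 1271 and 311 in LPS+MIC-1 (Log2FC 3.68 ± 0.65 (SE), adjusted p = 0.005), with LPS+MIC-1 library 2 far above libraries 1 and 3. Cidec, a protein of lipid droplets, was listed at 0, 0.226 and 0.221 FPKM in controls and 4.46, 66.7 and 4.15 in LPS+MIC-1, library 2 again the highest. Pltp, which transfers phospholipids between lipoproteins, fell (Log2FC -2.62 ± 0.27 (SE), adjusted p = 0.000731).

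In glucose handling the transporter and the last step of glucose release fell. Slc2a2, the glucose transporter of the hepatocyte, was at 54.9, 71.2 and 88.7 FPKM in controls and 4.16, 2.19 and 5.78 in LPS+MIC-1 (Log2FC -4.05 ± 0.52 (SE), adjusted p = 0.00177). G6pc, which frees glucose from glucose-6-phosphate, was at 147, 161 and 164 against 26.7, 8.94 and 27 FPKM (Log2FC -3.04 ± 0.45 (SE), adjusted p = 0.00291). Fbp1, an earlier enzyme of the same pathway, rose from 176, 133 and 66.2 to 1103, 815 and 1123 FPKM (Log2FC 3.11 ± 0.62 (SE), adjusted p = 0.00759). Of 20 genes of this list 6 fell and 2 rose. The list of glycolysis and Hif1a genes had 7 of 22 genes higher and 1 lower. Ldha, the lactate dehydrogenase subunit, was at 159, 122 and 36.5 FPKM in controls and 1224, 941 and 1293 in LPS+MIC-1 (Log2FC 3.67 ± 0.79 (SE), adjusted p = 0.00975). Tpi1 was at 165, 88.4 and 58.5 against 467, 531 and 489 (Log2FC 2.38 ± 0.39 (SE), adjusted p = 0.00389). Vegfa, an angiogenic factor and not a glycolytic enzyme, was the gene of this list that fell (Log2FC -1.79 ± 0.18 (SE), adjusted p = 0.000702). Of 51 genes of amino acid breakdown and the urea cycle 10 rose and 8 fell, with 3 higher and 18 lower with the same FPKM sum. There were 6 higher without control library 2 or 3 or LPS+MIC-1 library 1 or 3 and 2 lower without control library 2 or 3, and 4, 4 and 5 lower without LPS+MIC-1 library 1, 2 and 3. Sdsl, a serine dehydratase, rose from 16.1, 28.9 and 16.2 to 229.7, 335 and 226 FPKM (Log2FC 3.69 ± 0.32 (SE), adjusted p = 0.000467) and kept its call throughout.

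Among transcription factors that set liver identity and nuclear receptors, 3 of 29 rose and 3 fell, beside 13.8% and 11.5% of all tested genes. The count higher was 5 without control library 1 and 6 without LPS+MIC-1 library 2. With the same FPKM sum this list had 3 higher and 8 lower. Hnf4a, the master factor of hepatocytes, was at 52.9, 56.6 and 3.53 FPKM in controls and 111, 49 and 107 in LPS+MIC-1 (adjusted p = 0.139). Cebpd, an acute-phase C/EBP factor, rose from 3.88, 3.83 and 2.28 to 23.2, 24.5 and 25.2 FPKM (Log2FC 2.72 ± 0.30 (SE), adjusted p = 0.00102). Onecut1, a liver-enriched homeobox factor, fell from 54, 25.5 and 17.5 to 2.78, 4.01 and 2.41 FPKM (Log2FC -3.07 ± 0.44 (SE), adjusted p = 0.00256). Of 18 clock genes 5 fell and 2 rose. Nr1d1 (chr11:98629246-98636647, minus strand), the repressor REV-ERBalpha, was at 59.1, 37.4 and 37.6 FPKM in controls and 1.82, 1.54 and 1.56 in LPS+MIC-1 (Log2FC -4.37 ± 0.28 (SE), adjusted p = 0.000213). Dbp, an output factor of the clock, was at 21.3, 9.78 and 13.5 against 0.592, 1.57 and 0.721 FPKM (Log2FC -3.38 ± 0.36 (SE), adjusted p = 0.000947), and Per1, a clock repressor that glucocorticoids induce, rose (Log2FC 1.5 ± 0.26 (SE), adjusted p = 0.00496) except that the call was lost with the same FPKM sum. The livers were collected 16 h after injection, and the hour of day is not given in the sources used here.

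Some of the largest changes were in genes of no list. Reg3g, an antibacterial lectin, rose from 1.45, 11 and 1.35 to 153, 308 and 144 FPKM (Log2FC 5.78 ± 0.72 (SE), adjusted p = 0.0016). Crybb3, a lens crystallin by name, was listed at 0 in every control and at 13.8, 156 and 8.06 FPKM in LPS+MIC-1. Acbd5, a peroxisomal membrane protein, was listed at 0.0282, 0.406 and 0 FPKM in controls and 27.1, 28.4 and 24.1 in LPS+MIC-1. Ufc1, a ubiquitin-like conjugating enzyme, was listed at 48.3, 0 and 0 FPKM in controls and 107, 142 and 108 in LPS+MIC-1, and its call was lost without control library 2 or 3 or any of the LPS+MIC-1 libraries, with adjusted p of 0.0537 to 0.0728. On the falling side, Chrna4, a nicotinic receptor subunit, went from 11.9, 22.3 and 21.4 to 0.0159, 0.019 and 0 FPKM (Log2FC -5.17 ± 0.28 (SE), adjusted p = 0.000173), Lhx5, a homeobox gene, from 17.1, 40.0 and 36.9 to 0.268, 1.12 and 0.312 (Log2FC -4.89 ± 0.39 (SE), adjusted p = 0.000335), and 1500017E21Rik from 26.3, 90.3 and 109.8 to 1.35, 0.396 and 1.81 (Log2FC -5.37 ± 0.66 (SE), adjusted p = 0.00156). Aqp8, a water channel of hepatocytes, was at 53.3, 16.6 and 24.9 against 1.56, 0 and 1.87 FPKM (Log2FC -4.41 ± 0.64 (SE), adjusted p = 0.00276). The small nucleolar RNA gene Snora26 was listed at 63.5, 94.2 and 85 FPKM in controls and 0, 5.83 and 0 in LPS+MIC-1. The most abundant gene called lower was Mtrnr2l, at 37333, 58367 and 51624 against 4722, 21573 and 4303 FPKM (Log2FC -2.67 ± 0.81 (SE), adjusted p = 0.0324), with LPS+MIC-1 library 2 closest to the controls and the call lost without control library 2 or 3 or LPS+MIC-1 library 1 or 3 (adjusted p = 0.0859 to 0.112).

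**Figure D4:**
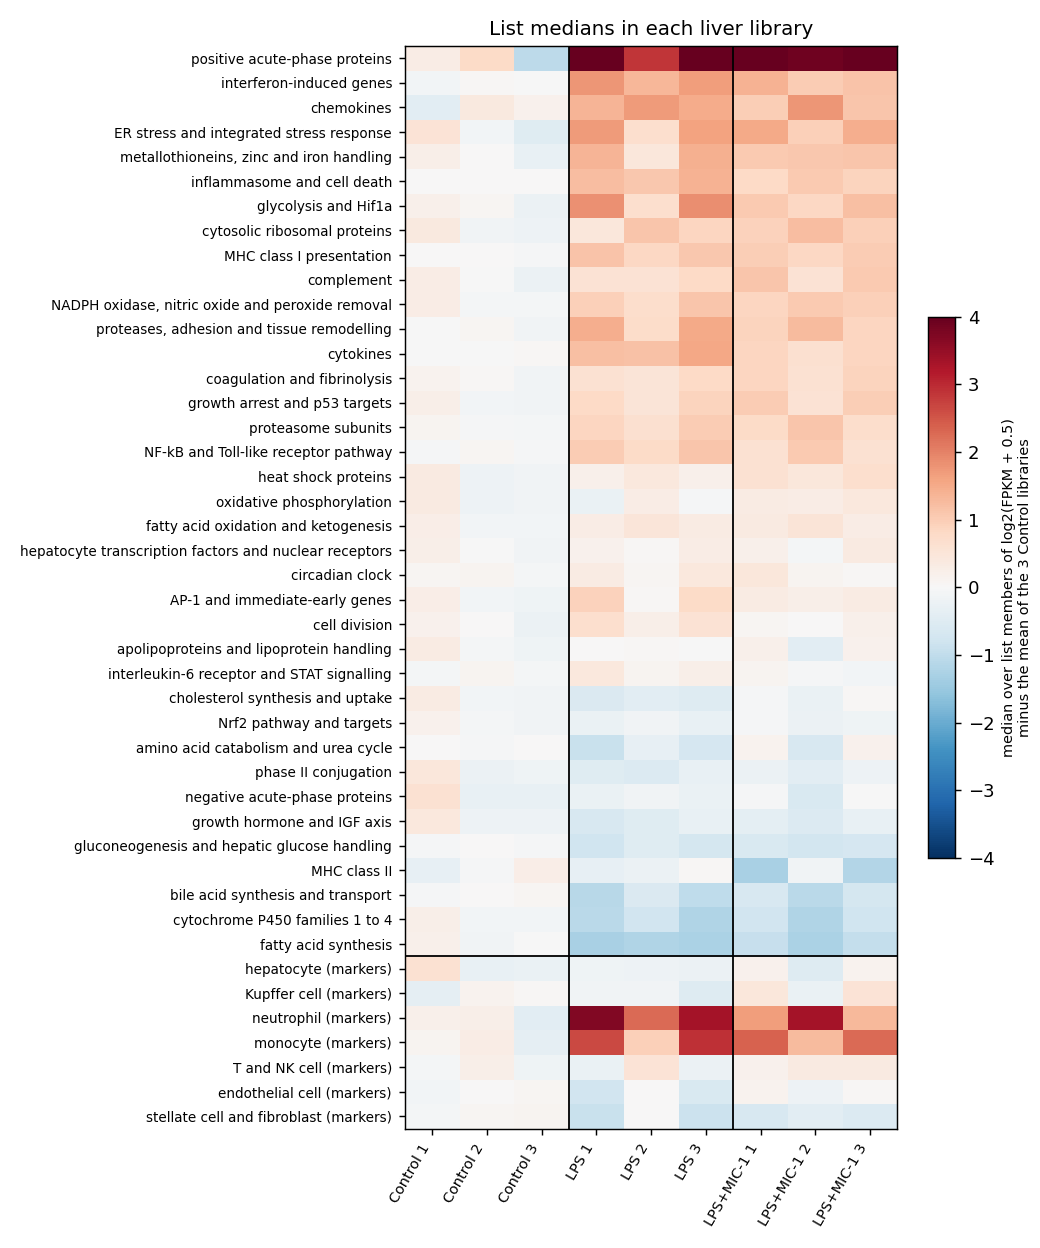
Heat map of the median over list members of log2(FPKM + 0.5) minus the control mean, with process lists and 7 marker lists in rows and the 9 liver libraries in columns. The colour scale ends at 4 and -4. The acute-phase list sits at 4.20, 3.88 and 4.22 in the LPS+MIC-1 libraries against 0.29, 0.76 and -1.06 in the controls, and the neutrophil markers at 1.68, 3.32 and 1.31.

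The changes from control with LPS alone and with both agents use the same 3 controls, so their values are only set side by side. LPS alone gave 25 acute-phase genes higher and 1 lower with a median Log2FC of 3.84, against 25, 0 and 3.97 with both agents. For interferon-induced genes the counts higher were 22 and 16 with medians of 1.84 and 1.41, for chemokines 13 and 11 with 1.51 and 1.29, and for the NF-kB list 9 and 8 with 0.84 and 0.67. Chemokines had 2 lower with LPS alone and 0 with both. The Nrf2 list had 4 higher and 9 lower with LPS alone against 4 and 9 with both. The P450 list had 20 and 19 lower. The cholesterol list had 6 lower with LPS alone and 3 with both, of 25 genes. Amino acid breakdown had 5 higher and 18 lower with LPS alone against 10 and 8 with both. Oxidative phosphorylation had 7 higher and 2 lower against 16 and 1. Neutrophil markers had 10 higher and 1 lower against 7 and 1, with medians of 3.04 and 1.90.

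The direct comparison of LPS+MIC-1 with LPS tests whether the agents together differed from LPS alone, and no gene passed (limma, smallest adjusted p = 0.0546). An unadjusted p below 0.05 was reached by 364 genes in limma (3.59% of those tested). A share of 0.05 is due even where no gene differs, so this count is no evidence of a difference. The values of the groups did not overlap for 989 genes (9.75%). With 3 libraries per group some genes separate in this way without any difference, so this count is no evidence either. Of those at an unadjusted p below 0.05, 42 had a Log2FC above 1 (0.414%) and 58 below -1 (0.572%). The count rested on the LPS group: without LPS library 2, which lay apart from LPS libraries 1 and 3, 35 genes were called, 20 higher and 15 lower with both agents. They included Dmbt1, Fdps and Nsdhl, an enzyme of cholesterol synthesis, on the higher side (adjusted p = 0.0317, 0.0293 and 0.0484) and Tnfaip3, the feedback inhibitor A20 of NF-kB, on the lower side (adjusted p = 0.0291). In that fit the LPS group was only its close pair, at 6.57 times read sampling against 72.77 and 71.34 for the pairs with library 2. The spread within LPS was therefore small, and these adjusted p values may be too low. Without LPS library 1 or 3, 0 and 1 genes were called. Tnfaip3 was at 0.465, 0.293 and 0.287 FPKM in controls, 10.4, 1.3 and 10.5 in LPS and 2.44, 2.88 and 2.05 in LPS+MIC-1, so LPS library 2 fell below its group and below the livers with both agents. Nsdhl and Tnfaip3 were named after their values were seen. The smallest p belonged to Dmbt1 (chr7:138175590-138265140), a secreted scavenger-receptor protein of mucosal defence. It was at 0.128, 0.835 and 0.282 FPKM in the controls, 0.107, 0 and 0.0519 in LPS and 5.74, 11.4 and 5.49 in LPS+MIC-1. Its values with both agents lay above all other libraries, with a difference from LPS of 3.79 (95% interval 2.93 to 4.66, adjusted p = 0.0546), and it was called higher than control (Log2FC 3.14 ± 0.38 (SE), adjusted p = 0.00151).

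Next came genes of cholesterol synthesis that were near control level in LPS+MIC-1. Fdps (chr3:88897514-88905881, minus strand), the farnesyl diphosphate synthase, was at 263, 242 and 251 FPKM in controls, 82.5, 128 and 89.4 in LPS and 265, 211 and 259.6 in LPS+MIC-1, a difference from LPS of 1.31 (95% interval 0.84 to 1.79, unadjusted p = 0.000177 and adjusted p = 0.518 by limma). Idi1, the isomerase before it in the pathway, was at 45.2, 50.7 and 53.1, 29.3, 22.8 and 30.0 and 62.4, 51.7 and 60.8 FPKM, a difference from LPS of 1.08 (0.68 to 1.48, adjusted p = 0.518). Against control neither was called, with Log2FC -0.04 (-0.52 to 0.43) and 0.23 (-0.17 to 0.63). In the cholesterol list as a whole 3 of 25 genes were called higher than control and 3 lower, beside 13.8% and 11.5% of all tested genes. The count higher was 1 without control library 3 or LPS+MIC-1 library 1 or 3. With the same FPKM sum the list had 0 higher and 8 lower. Sc5d and Insig1 were lower than control with both agents (-1.33 and -1.66 on the Log2FC scale) and Sqle, the squalene epoxidase, higher (1.52). Sqle was named after its values were seen.

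In the other direction Gamt lay further from control with both agents than with LPS alone, at 63.3, 82.2 and 57.8 FPKM in LPS and 26.6, 36.4 and 23.9 in LPS+MIC-1, a difference of -1.22 (95% interval -1.71 to -0.73, adjusted p = 0.732 by limma). Igtp, an interferon-induced GTPase, was at 11.9, 13.9 and 13 FPKM in controls, 63.7, 57.7 and 68.5 in LPS and 35.5, 36.9 and 35.3 in LPS+MIC-1, a difference from LPS of -0.81 (-1.14 to -0.47, adjusted p = 0.774). The small nucleolar RNA gene Snord69 was listed at 0 in all controls and all LPS+MIC-1 libraries and at 5.38, 3.91 and 16.4 FPKM in LPS. None of these passed the adjustment with all libraries. For Saa2, Lcn2 and Cyp7a1 the differences from LPS were 0.94 (-1.98 to 3.86), 0.22 (-2.48 to 2.92) and -0.19 (-1.04 to 0.67) with their 95% intervals, and the intervals of Saa2 and Lcn2 reach far to either side of 0.

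**Figure D5:**
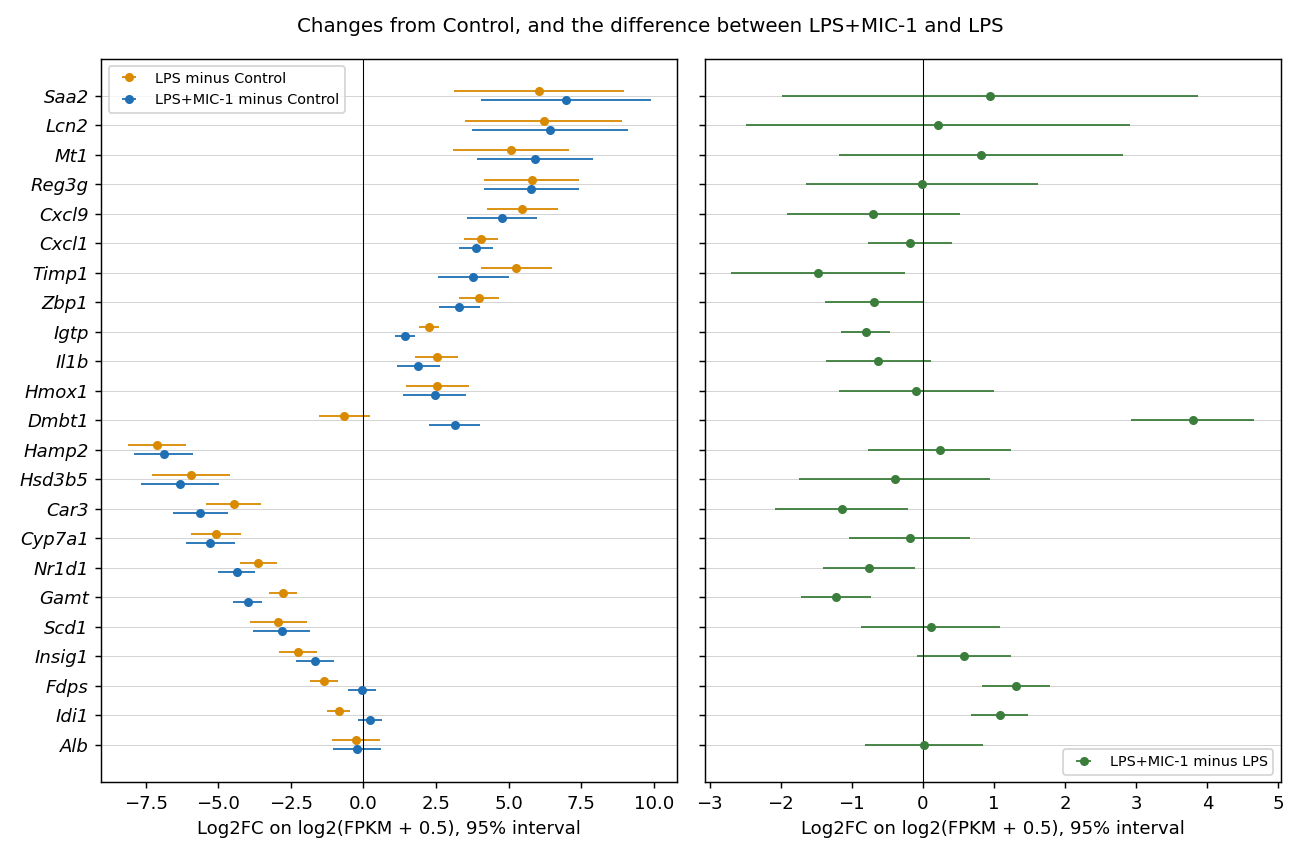
Left, Log2FC from control with LPS alone and with LPS+MIC-1 for 23 genes; right, LPS+MIC-1 minus LPS for the same genes. Points are estimates on the log2(FPKM + 0.5) scale, bars are 95% intervals from limma, and both sets on the left share the 3 controls. Dmbt1 at 3.79, Fdps at 1.31 and Idi1 at 1.08 lie right of 0 in the right panel, and Gamt at -1.22 and Igtp at -0.81 left of it, none with an adjusted p below 0.05.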

How the data were processed

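RNA-seq values of 9 mouse liver libraries were used, 3 each for Control, LPS and LPS+MIC-1. The authors used kallisto (0.45.0) for pseudoalignment against RefSeq transcripts of mm9, tximport for gene totals and DESeq2 (1.20.0) for the FPKM values they deposited, which carry its scaling between libraries; versions are per the submitters' processing notes. Macrophage values and the authors' DESeq2 comparisons (fold changes and p-values) were not used. Each of the 9 liver columns names a group but no single sample, so library numbers follow column order. Since values were FPKM and not counts, log2(FPKM + 0.5) of genes with a mean FPKM above 1 was fitted with limma 3.58.1 in R 4.3.3 (lmFit, eBayes with trend, all 3 groups in 1 fit, Benjamini-Hochberg adjustment over 10147 genes, two-sided). The fit was first tested on simulated data with independent libraries, so that test does not cover the close pairs of these groups. The scale understates changes of low genes, and no fold was computed against a group listed at 0. Depth was estimated from the steps between low FPKM values. With a scale chosen for each gene to bring its values nearest to whole reads, 74.0% of 2209 low genes lay within 0.1 of them. That choice raises the share, so it is no independent check of the depth. The share was too low to recover counts, so no count test was run.

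Genes were named by rule: the 12 largest called changes per direction whose groups did not overlap, the 2 largest called changes per direction and the 2 most abundant genes of each list, the 5 most abundant called genes per direction, the 3 smallest p values per direction against LPS, and Tnf, Il1b and Il6. Others are said to be named after their values were seen. One marker gene is not reported here. The members and the 37 process and 12 marker lists were chosen with earlier results of these data known. Positions are GENCODE vM1 genes on mm9, promoters are RefSeq on GRCm38.p6, and figures were drawn with matplotlib 3.10.9 under Python 3.11.15. Alternatives covered the pseudocount, filter, scaling, samples in the fit, variance model, thresholds and each library left out, and 2 were added after seeing the data (close pairs averaged).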

Additional observations from a re-analysis of the deposited data

How the results depend on the processing

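With each of the 9 libraries left out in turn, 1749 to 3111 genes were called between LPS+MIC-1 and control (2560 with all), 952 to 1810 higher and 797 to 1301 lower, while LPS against control gave 1227 to 3510 (2493 with all, 1227 without LPS library 3, 1472 without LPS library 1, 1655 without control library 3) and LPS+MIC-1 against LPS gave 0 to 35, the 35 without LPS library 2. Averaging the closest pair of each group, chosen after seeing the data, left 160 genes (99 higher and 61 lower), and 151 for LPS against control, which has fewer samples by construction. Rescaling to the same FPKM sum gave 535 higher and 2584 lower. A mean FPKM above 5 gave 662 lower among fewer genes tested. An adjusted p below 0.01 gave 1370 (724 higher and 646 lower), and 1102 for LPS against control. Between LPS+MIC-1 and LPS, 1 gene was called with a pseudocount of 1, 2 with no filter, 2 with the filter over the 6 libraries compared, 1 without the eBayes trend (Dmbt1 in each of these 4), and 100 at an unadjusted p below 0.05. The cause of these shifts was not tested. Of 151 named genes called, 49 stayed called with the close pairs averaged, and the same 49 were called under every setting tried. The rest lost their call with the close pairs averaged, 57 of them under that setting only. Calls were lost for 30 named genes without at least 1 library, for 15 with the same FPKM sum and for 2 with median-of-ratios rescaling, and no named gene reversed. No paired analysis was possible because the liver columns carry no replicate numbers. Depth limits low genes in the controls most, where 96 tested genes were listed at 0 in all 3 libraries.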

Other observations

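Further gene groups gave these values between LPS+MIC-1 and control. Of 27 genes of inflammasomes and cell death 12 rose and 2 fell (median Log2FC 1.07), 1 falling without control library 1 or 3, LPS library 1 or 3 or LPS+MIC-1 library 1 or 3. Tnfrsf1a, the widely expressed Tnf receptor, was at 21.3, 15.6 and 12.9 FPKM in controls and 66.3, 57.7 and 67.9 in LPS+MIC-1 (Log2FC 1.94 ± 0.33 (SE), adjusted p = 0.00464), while Aim2, a sensor of cytosolic DNA, was at 5.19, 7.14 and 9.36 against 1.1, 1.98 and 1.2 (Log2FC -2.0 ± 0.31 (SE), adjusted p = 0.00335). Of 24 genes of oxidant production and removal 9 rose and 1 fell, 5 rising without LPS+MIC-1 library 3 and 2 higher and 1 lower with the same FPKM sum. Cyba, a membrane subunit of the NADPH oxidase, was at 9.42, 7.16 and 6.45 FPKM in controls and 43.2, 60.4 and 43.6 in LPS+MIC-1 (Log2FC 2.60 ± 0.22 (SE), adjusted p = 0.000439), and Cat, the catalase of peroxisomes, at 1110.2, 685 and 814 against 313, 192 and 308 (Log2FC -1.68 ± 0.42 (SE), adjusted p = 0.0157). Of 18 genes of proteases, adhesion and remodelling 8 rose and 1 fell, none falling without control library 1 or LPS+MIC-1 library 1 or 2, with Chi3l1, a chitinase-like protein, at 0.256, 1.02 and 0.222 FPKM in controls and 8.73, 15.9 and 8.84 in LPS+MIC-1 (Log2FC 3.58 ± 0.47 (SE), adjusted p = 0.00192). Of 17 growth arrest and p53 targets 6 rose and 2 fell, or 4 higher and 5 lower with the same FPKM sum. Of 20 immediate-early genes 3 rose, beside 13.8% of all tested genes, and 1 fell without control library 2 or 3. Junb rose from 22.7, 11.3 and 8.86 to 67.4, 61.1 and 67.1 FPKM (Log2FC 2.26 ± 0.42 (SE), adjusted p = 0.00627). Heat shock proteins had 4 of 19 called higher, 2 without control library 2 or 3, and their median of 0.44 became -0.09 with the same FPKM sum, where 0 higher and 2 lower were called.

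Among other cell type markers, Gzma and Gzmb were called higher and Cd3d lower of 6 T and NK cell markers, Lyve1 was called higher of 10 endothelial markers and Sox9 of 5 bile duct markers, and Hbb-b1 was called lower of 3 red cell markers, all named after their values were seen. Gzmb, Lyve1 and Hbb-b1 lost their call when single libraries were left out. Neither the 4 platelet markers nor the pancreas marker gave a call.

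Plk2, a polo-like kinase, was at 5.41, 5.17 and 5.97 FPKM in controls, 5.91, 3.99 and 5.59 in LPS and 2.7, 2.12 and 1.82 in LPS+MIC-1, a difference from LPS of -1.06 (95% interval -1.52 to -0.59, adjusted p = 0.891 by limma), and it was called lower than control (Log2FC -1.16 ± 0.20 (SE), adjusted p = 0.00501). Slc40a1, the iron exporter ferroportin, was at 15.5, 15.2 and 16.3 FPKM in controls, 4.13, 9.51 and 4.8 in LPS and 20.4, 8.0 and 19.5 in LPS+MIC-1, where library 2 lay at LPS level and libraries 1 and 3 above the controls. Hamp, whose control and LPS+MIC-1 values are given above, was at 1593, 1874 and 1692 FPKM in LPS. Slc40a1 was chosen after its values were seen. Gbp2, an interferon-induced GTPase also chosen after its values were seen, was at 3.78, 2.58 and 1.19 FPKM in controls, 128, 28.3 and 117 in LPS and 11.9, 38.5 and 13.6 in LPS+MIC-1, and LPS library 2 lay within the range of the livers given both agents.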
